A study of Mus musculus with 4 samples.

Results

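The genes described here encode 9 inhibitory checkpoint receptors, taken by symbol (Pdcd1, Lag3, Havcr2, Tigit, Ctla4, Cd160, Btla, Vsir and Cd200r1) from the 55367 gene rows of each count table, where all 9 were found. RNA-seq was performed on 4 libraries of cells sorted from mouse tumors formed by B16-F10, a melanoma cell line, for a study of the genome organizer SATB1 in lymphocytes that infiltrate tumors. The library titles gave 2 libraries labeled WT and 2 labeled KO. Both groups were made from polyadenylated RNA of dissociated tumor tissue, which the extraction label describes as sorted for CD45.2 and CD8, whereas the cell type label names CD45.2 alone. The labels did not give the Cre driver behind KO, the sex, strain or age of the mice, the time after tumor injection, or whether the libraries came from separate mice, so that p-values measure the spread between these libraries, which may be technical. The series text names a floxed Satb1 allele with Thpok-cre, which acts in CD4-lineage T cells, and with E8I-cre, which acts in mature CD8 T cells, beside WT, and it was not stated which of them KO stands for. It also calls the series single-cell, whereas each table held 1 count per gene and no cell barcodes, and the counts are treated here as bulk.

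Inhibitory checkpoint receptors are surface proteins that dampen activation of the cell that carries them once a ligand on a neighboring cell is engaged. PD-1 (Pdcd1), CTLA-4, LAG-3, TIGIT and TIM-3 (Havcr2) are induced on activated T cells and are kept high on exhausted T cells of tumors, where antibodies against several of them are used as therapy. The other members have a wider distribution. VISTA (Vsir) is abundant on myeloid cells, macrophages included, TIM-3 and CD200R1 are also found on macrophages and dendritic cells, BTLA on B cells and dendritic cells, and CD160 on natural killer (NK) cells, intraepithelial lymphocytes and subsets of CD8 T cells.

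Gene counts per library ranged from 4017875 to 5382915, so that a count of 3, used as the floor of detection, corresponded to 0.557 to 0.747 CPM (counts per 1000000 gene counts). Satb1 itself had 7 and 5 counts in WT 1 and WT 2 and 131 and 55 in KO 1 and KO 2, which goes against the label, while per 100 counts of the CD3 genes described below it had 6.03 and 2.78 in WT and 4.07 and 2.82 in KO, so that the groups overlapped. The directions below are those of the libraries as labeled. Xist and Ddx3y, which mark female and male cells, split the libraries in the same way as the labels (435 and 216 against 0 and 3 counts, and 0 and 0 against 188 and 81 counts), so sex and group cannot be told apart. The 12 T cell markers summed to 80.1 and 131 CPM in WT 1 and WT 2 but to 2628 and 1388 CPM in KO 1 and KO 2, with no marker at 0 in a whole group, whereas the 11 macrophage markers summed to 29075 and 39616 CPM and to 22760 and 28505 CPM. The 7 fibroblast and endothelium markers stood apart in KO 1, at 1476 CPM against 20.7, 19.2 and 203 CPM in WT 1, WT 2 and KO 2. Melanoma markers (6 genes) summed to 188, 230, 2213 and 1232 CPM, dendritic cell markers (8 genes) to 102, 164, 273 and 146 CPM, and neutrophil markers (5 genes) to 127, 110, 55.6 and 97.5 CPM in WT 1, WT 2, KO 1 and KO 2, of which Csf3r alone gave 125, 108, 54.0 and 94.2 CPM, while Cd4 and Cd40lg together had 6, 33, 5 and 42 counts. The libraries therefore held far more macrophage than T cell transcripts in spite of the sort label, and in bulk RNA fewer cells of a type and less RNA per cell cannot be told apart. The T cell markers stood higher in the same libraries as Pdcd1, Cd160, Tigit, Ctla4, Lag3 and Cd200r1 below, and values per CD3 count are therefore given for each receptor.

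Pdcd1 and Cd160 were the receptors that rose past the threshold in the libraries labeled KO. Pdcd1, which encodes PD-1 (chromosome 1, 94038305 to 94052553, minus strand of mm10, ENSMUSG00000026285.7), had 15 and 41 counts in WT 1 and WT 2 against 605 and 1781 in KO 1 and KO 2. This corresponded to 3.73, 9.62, 135 and 331 CPM. Both libraries labeled KO stood above both labeled WT, and KO 2 stood well above KO 1. Its log2 fold change of KO over WT was 4.84 ± 0.68 (standard error, SE), a fold of 28.7 (edgeR quasi-likelihood test, adjusted p = 0.0269), and became 3.95 without KO 2 (edgeR adjusted p = 0.00410), 5.38 without KO 1, 5.53 without WT 2 and 4.38 without WT 1. In this and every other fit without 1 library, a group is left with a single library, which is assumed to vary like the pair of the other group, the only libraries that then give a spread. Cd160 (chromosome 3, 96798763 to 96829351, minus strand, ENSMUSG00000038304.14), whose product binds the same partner, HVEM, as BTLA does, had 0 and 3 counts in WT 1 and WT 2 against 246 and 120 in KO 1 and KO 2. It was near the floor of detection in both libraries labeled WT. With 3 counts in all in WT, the pooled ratio of KO to WT was 81.8 with an exact Poisson 95% interval from 27.8 to 398, which covers counting error only, and the fitted log2 fold change was 6.31 ± 0.97 (SE, edgeR adjusted p = 0.0295). It was 5.44 without WT 1, 10.32 without WT 2, 5.61 without KO 1 and 6.76 without KO 2, and the value without WT 2 rests on the 0 counts of WT 1 and depends on the prior count. Cd160 shares 2.57% of its exonic bases with Pdzk1 on the other strand, and the counting was not stated to use strand. NK cells also carry CD160, and the 4 NK markers summed to 0, 11, 109 and 10 counts across WT 1, WT 2, KO 1 and KO 2, of which Klre1, chosen after its values were seen, made up 0, 7, 104 and 10. Ncr1, a defining NK gene, had 0, 1, 4 and 0 counts. The part of NK cells in the Cd160 counts was not tested.

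The promoters of these 2 receptors are shown beside those of Havcr2, which had a like level in all libraries, and Vsir, which stood lower in both libraries labeled KO. The sequences are those of RefSeq on GRCm38.p6, each from 250 bases before to 50 bases after a transcription start, written 5′ to 3′ on the strand of the gene. Capitals mark matches on either strand to 4 motifs, namely GGAAA (NFAT core), TGANTCA (AP-1), TGTGGT (RUNX) and GAGGAAGT (an ETS site of the PU.1 type), and neighboring matches run together. Pdcd1 lies at chr1:94052504-94052803 (minus strand), Cd160 at chr3:96829302-96829601 (minus strand, the one of 2 listed starts that coincides with the gene start in GENCODE M21), Havcr2 at chr11:46454681-46454980 (plus strand) and Vsir at chr10:60346601-60346900 (plus strand).
Pdcd1: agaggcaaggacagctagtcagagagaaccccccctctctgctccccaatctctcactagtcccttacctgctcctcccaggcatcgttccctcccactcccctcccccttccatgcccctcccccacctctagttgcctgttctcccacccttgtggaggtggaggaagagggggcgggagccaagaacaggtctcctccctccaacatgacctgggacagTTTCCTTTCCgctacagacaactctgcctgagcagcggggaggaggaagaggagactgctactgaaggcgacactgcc
Cd160: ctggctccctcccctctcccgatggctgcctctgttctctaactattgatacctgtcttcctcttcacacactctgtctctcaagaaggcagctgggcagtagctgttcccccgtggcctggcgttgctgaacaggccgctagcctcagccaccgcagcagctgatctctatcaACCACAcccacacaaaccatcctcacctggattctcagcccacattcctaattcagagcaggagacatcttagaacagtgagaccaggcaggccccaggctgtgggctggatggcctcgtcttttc
Havcr2: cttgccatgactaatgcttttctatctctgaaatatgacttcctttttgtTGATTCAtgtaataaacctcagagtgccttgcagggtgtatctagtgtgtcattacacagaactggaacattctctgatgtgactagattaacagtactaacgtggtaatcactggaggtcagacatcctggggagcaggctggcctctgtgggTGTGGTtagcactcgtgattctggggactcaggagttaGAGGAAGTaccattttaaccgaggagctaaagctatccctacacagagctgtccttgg
Vsir: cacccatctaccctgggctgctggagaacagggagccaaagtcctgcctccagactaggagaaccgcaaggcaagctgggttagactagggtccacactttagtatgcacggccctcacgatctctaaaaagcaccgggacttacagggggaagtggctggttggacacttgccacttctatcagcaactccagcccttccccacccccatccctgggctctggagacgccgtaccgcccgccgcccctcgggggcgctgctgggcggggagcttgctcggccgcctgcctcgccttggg

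The Pdcd1 window held 2 adjoining NFAT cores shortly before the start and none of the other motifs. The Cd160 window shown held 1 RUNX match, and the window of its other start held 1 RUNX match and 1 NFAT core. The Havcr2 window held 1 match each to AP-1, RUNX and the ETS site, and the Vsir window none of the 4 motifs. In all, 7 receptors had 8 entries in the promoter table, of which 4 held an NFAT core (in Pdcd1, Ctla4, Tigit and the other start of Cd160), 1 AP-1, 5 RUNX and 2 the ETS site, the latter in Havcr2 and Btla. Among all 32851 promoters of this length, 61.3% held an NFAT core, 7.81% AP-1, 16.8% RUNX and 3.20% the ETS site. A match describes letters only and was not tested for binding. Lag3 and Cd200r1 had no entry.

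Tigit, Ctla4 and Lag3 stood higher in both libraries labeled KO than in both labeled WT, without passing the threshold over all genes. Tigit (chromosome 16, 43648867 to 43664146), whose product competes with the costimulatory receptor CD226 for the ligand CD155 (Pvr), had 0 and 4 counts in WT 1 and WT 2 and 99 and 82 in KO 1 and KO 2. Its pooled ratio was 30.3 with an exact Poisson 95% interval from 11.6 to 113, and its fitted log2 fold change was 4.90 (SE 1.0, edgeR adjusted p = 0.0700). Ctla4 (chromosome 1, 60887000 to 60915832), which competes with CD28 for CD80 and CD86, had 17, 49, 425 and 278 counts in the same order. The level was 7.87 ± 5.14 CPM in WT and 73.3 ± 30.6 CPM in KO (SD, n = 2 each), and the log2 fold change was 2.89 ± 0.58 (SE, edgeR adjusted p = 0.0624). Regulatory T cells also carry CTLA-4 and TIGIT, and the 5 regulatory T cell markers summed to 46.8, 48.6, 178 and 109 CPM. Foxp3, their defining factor, had 146, 156, 120 and 132 counts, which gave 36.3 and 36.6 of the CPM in WT 1 and WT 2. The other markers stood higher in KO, with Il2ra at 0, 12, 159 and 128 counts and Tnfrsf18 at 40, 34, 397 and 299. Ikzf2 had 2, 5, 89 and 16 counts and Ccr8 0, 0, 31 and 14. Of the 5, 4 were higher at an unadjusted edgeR p under 0.05, where 9.44% of all genes were, and 0 were called by edgeR. The part of these cells in the Ctla4 and Tigit counts was not tested. Lag3 (chromosome 6, 124904361 to 124911705), a CD4-related receptor that binds MHC class II, had 11, 13, 99 and 118 counts. Its libraries agreed closely within groups, at 2.89 ± 0.22 CPM in WT and 22.0 ± 0.13 CPM in KO (SD, n = 2 each), and the log2 fold change was 2.59 ± 0.60 (SE, edgeR adjusted p = 0.112). Tigit and Ctla4 passed in edgeR without KO 2, with adjusted p = 0.0273 and 0.0125, and without WT 2, with adjusted p = 0.00389 and 0.0247. They did not pass without WT 1, with adjusted p = 0.0988 and 0.327, or without KO 1, with adjusted p = 0.109 and 0.0903. The log2 fold change of Ctla4 was 3.21 without KO 2, 3.62 without WT 2, 2.39 without WT 1 and 2.47 without KO 1. That of Tigit was 5.07, 9.30, 4.01 and 4.68, where the value without WT 2 rests on the 0 counts of WT 1 and depends on the prior count. That of Lag3 was 2.52 without KO 2, 2.54 without WT 2, 2.59 without WT 1 and 2.65 without KO 1. DESeq2 called Tigit, Ctla4 and Lag3 with adjusted p = 0.000512, 0.000342 and 0.0173. With the replicate number as a further term, edgeR gave them adjusted p = 0.00580, 0.00833 and 0.0876. Without the filter on low counts, edgeR gave adjusted p = 2.96e-05, 0.000138 and 0.0181, and with plain CPM 0.0506, 0.0462 and 0.0665.

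Btla (chromosome 16, 45224315 to 45257670), which encodes a receptor for HVEM, was detected in a single library. It had 47 counts in KO 1 and 0 in WT 1, WT 2 and KO 2. The level in KO 1 was 10.5 CPM with an exact Clopper-Pearson 95% interval from 7.71 to 14.0, and the interval of the 0 counts reached 0.918, 0.866 and 0.685 CPM in WT 1, WT 2 and KO 2. The groups thus overlapped at 0, and Btla did not pass the filter on low counts. When every gene with a count was tested, edgeR gave an adjusted p of 0.0137 that rested on KO 1 alone. Among markers of cells known to carry BTLA, the 5 B cell markers had 64, 182, 21 and 80 counts across WT 1, WT 2, KO 1 and KO 2, nearly all from Cd79b (61, 182, 12 and 73), while Pax5, a defining B cell gene, was at 0 in each library. The 8 dendritic cell markers had 409, 699, 1222 and 785 counts, and single markers differed in pattern. Flt3 had 0, 1, 31 and 0 counts and Cd209a 26, 66, 666 and 135, whereas Batf3 had 170, 262, 150 and 75, Itgax 208, 339, 256 and 440, Zbtb46 1, 4, 21 and 51, and Xcr1 0, 14, 13 and 20. Fscn1 had 3, 5, 68 and 53 counts and Clec9a 1, 8, 17 and 11. The 12 T cell markers had 322, 557, 11771 and 7474 counts. The part of these cells in the Btla counts was not tested.

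Havcr2, Cd200r1 and Vsir, which macrophages also carry, were not called in either direction, and Vsir was the one that stood lower in both libraries labeled KO. Havcr2 (chromosome 11, 46454935 to 46481255), which encodes TIM-3, had 83 and 87 counts in WT 1 and WT 2 against 108 and 109 in KO 1 and KO 2. In plain CPM the groups overlapped, at 20.5 ± 0.17 and 22.2 ± 2.73 (SD, n = 2 each), and the log2 fold change was -0.23 ± 0.48 (SE, edgeR adjusted p = 0.863). Its sign turned to 0.11 with plain CPM, a scaling that moved the median log2 fold change over all genes by 0.33. Cd200r1 (chromosome 16, 44765736 to 44794978), the receptor for CD200, had 77, 89, 154 and 223 counts, with both libraries labeled KO above both labeled WT. Its log2 fold change was 0.59 ± 0.45 (SE, edgeR adjusted p = 0.588). Vsir (chromosome 10, 60346851 to 60372684), which encodes VISTA, had 2309 and 2494 counts in WT 1 and WT 2 and 925 and 1898 in KO 1 and KO 2. It was the member with the most counts in every library and stood lower in both libraries labeled KO, at 580 ± 7.51 against 280 ± 103 CPM (SD, n = 2 each). Its log2 fold change was -1.37 ± 0.50 (SE, edgeR adjusted p = 0.286), and became -1.90 without KO 2, where it passed (edgeR adjusted p = 0.0254), and -0.99 without KO 1. Of the 11 macrophage markers, 9 had a fitted log2 fold change below 0, with a median of -0.96, and 0 were called by edgeR, while 3 were lower at an unadjusted p under 0.05, where 4.23% of all genes were, and DESeq2 called 1 lower, where it called 0.558% of all genes lower. The ratio of Vsir to Csf1r counts was 0.735, 0.522, 0.459 and 0.270 in WT 1, WT 2, KO 1 and KO 2. To Lyz2 it was 0.0786, 0.0434, 0.0136 and 0.0322. Both ratios were lower in both libraries labeled KO, while C1qa and C1qc had log2 fold changes of -1.75 and -1.53, below that of Vsir. The part of macrophages in the Vsir counts was not tested.

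**Figure D1:**
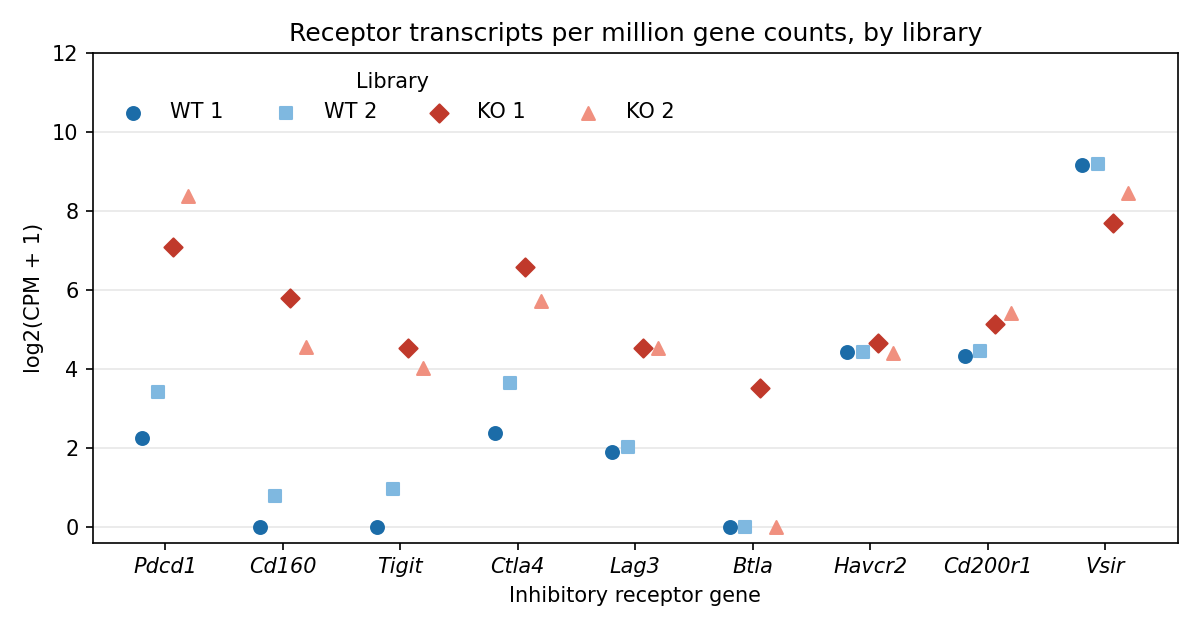
Level of each receptor gene in each library as log2(CPM + 1), with 1 point per library and no averaging. Pdcd1, Cd160, Tigit, Ctla4 and Lag3 sit higher in KO 1 and KO 2 than in WT 1 and WT 2, Havcr2 lies at about the same height in all 4 libraries, and Vsir is lower in the libraries labeled KO.

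Counted over the members, 8 of 9 passed the filter on low counts, and KO exceeded WT in 2 called genes and fell below it in 0 (edgeR adjusted p under 0.05). Over all 11837 genes tested, 0.549% were called higher, 0.0253% lower and 0.574% in either direction. At an unadjusted edgeR p under 0.05, 5 members were higher and 1 lower, and DESeq2 called 5 higher and 0 lower. Over all genes 13.7% had an unadjusted edgeR p under 0.05, with 9.44% higher and 4.23% lower, and DESeq2 called 3.51%, with 2.96% higher and 0.558% lower. The plain CPM of the groups did not overlap for 7 of the 8, where 48.4% of all genes tested did not overlap. The fitted log2 fold change was above 0 for 6 and below 0 for 2 of the 8, with a median of 2.74 against 0.05 over all genes. The members were picked with earlier results of these libraries known, so these counts are a description of the members and give no evidence about receptors in general.

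To set the receptors against the T cell content of each library, each count was divided by the summed counts of Cd3e, Cd3d and Cd3g, which encode invariant chains of the T cell receptor complex. WT 1 and WT 2 held 116 and 180 such counts and KO 1 and KO 2 held 3220 and 1950, a mean CPM 15.2-fold higher in the libraries labeled KO. On this scale Ctla4 and Lag3 were no longer higher in the libraries labeled KO. Ctla4 had 14.7, 27.2, 13.2 and 14.3 counts per 100 CD3 counts across WT 1, WT 2, KO 1 and KO 2, with both libraries labeled KO just below WT 1 and further below WT 2. Lag3 had 9.48, 7.22, 3.07 and 6.05 in the same order. Pdcd1 had 12.9, 22.8, 18.8 and 91.3, so that KO 1 lay between the libraries labeled WT while KO 2 stood alone above all others. The T cell marker Lck also had more counts in KO 2 than in KO 1 (24, 24, 641 and 1539 counts). Trbc2, another T cell marker, had fewer (43, 64, 3550 and 1035 counts). Tested per CD3 count as described below, Lck had a log2 fold change of 1.55 ± 0.76 (SE, edgeR adjusted p = 0.0545). The exact Clopper-Pearson 95% interval for Pdcd1 ran from 15.8 to 32.1 in WT 2, from 17.2 to 20.5 in KO 1 and from 85.6 to 97.4 in KO 2. Tigit had 0, 2.22, 3.07 and 4.21, and Cd160 had 0, 1.67, 7.64 and 6.15. For both genes WT 1 was limited by depth, since the upper end of its interval was 3.23, which reached the Tigit value of KO 1 and stayed below the Cd160 values of KO 1 and KO 2.

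**Figure D2:**
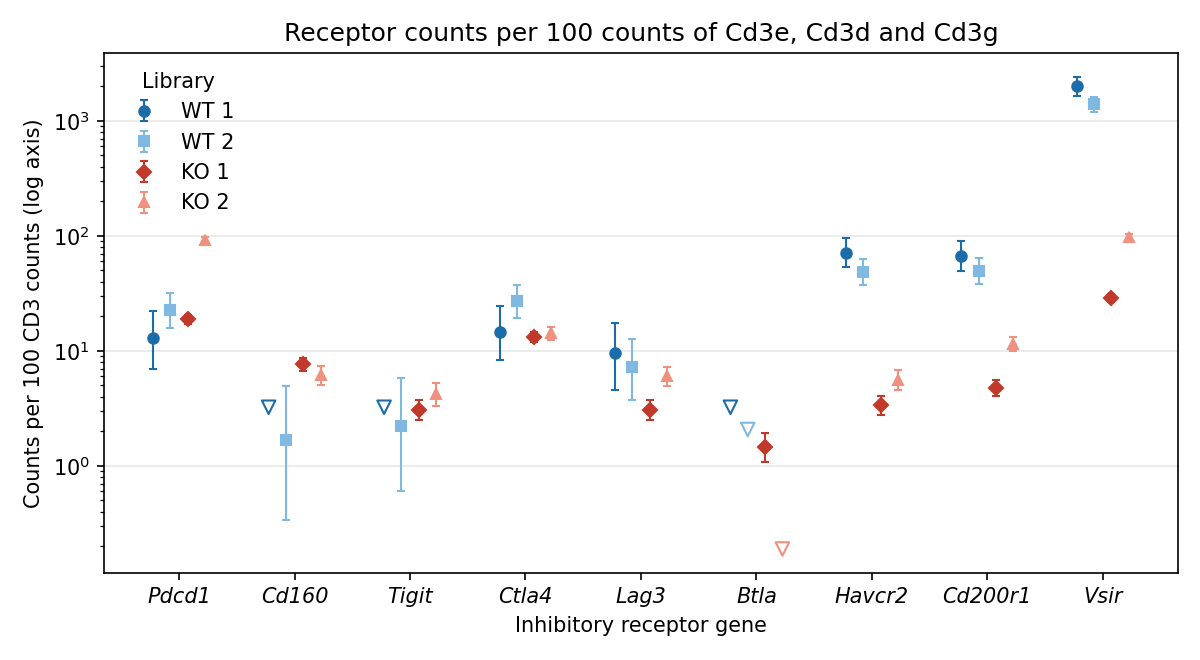
Receptor counts per 100 counts of Cd3e, Cd3d and Cd3g in each library, on a log axis. Bars are exact Clopper-Pearson 95% intervals for counting error only, and open triangles mark the upper end of the interval where the count was 0. For Ctla4, Lag3 and Tigit the interval of WT 1 or WT 2 reaches values of the libraries labeled KO, Pdcd1 of KO 2 stands apart at 91.3, and Havcr2, Cd200r1 and Vsir are lower in the libraries labeled KO.

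The test was repeated over all genes with the CD3 count in place of library size. On this scale 91.2% of all genes were called lower, 0.304% higher and 91.5% in either direction (edgeR), with a median log2 fold change of -3.43, so that the adjustment adds little to the raw p and a lower call says little about a receptor. Cd160 was the member called higher, with a log2 fold change of 2.84 ± 1.15 (SE, edgeR adjusted p = 0.0229). Its pooled ratio per CD3 count was 6.98 with an exact 95% interval from 2.35 to 34.2, which covers counting error only and leaves out the spread between libraries. The call of Cd160 was lost without WT 1, where the log2 fold change was 2.05 (edgeR adjusted p = 0.169), and without KO 1, where it was 2.65 (edgeR adjusted p = 0.0663). Without WT 2 it was 9.93 ± 3.91 (SE), a value that again rests on the 0 counts of WT 1. Pdcd1 had a log2 fold change of 1.61 ± 0.77 (SE) and did not pass (edgeR adjusted p = 0.0504), and its value was 0.05 without KO 2 and 2.33 without KO 1, where KO 2, which stands apart, was the only KO library (edgeR adjusted p = 0.000176). Tigit, Ctla4 and Lag3 had 1.52, -0.62 and -0.86 (SE of 1.19, 0.68 and 0.84) and were not called (edgeR adjusted p = 0.219, 0.380 and 0.320). The value of Tigit was 0.71 without WT 1 (edgeR adjusted p = 0.620). Tigit passed on this scale without WT 2 (edgeR adjusted p = 0.0484), where the 0 counts of WT 1 were the sole WT value and the fold change depended on the prior count. These intervals are wide, and a p that misses the threshold does not show that the groups were alike. Havcr2, Cd200r1 and Vsir were called lower, with log2 fold changes of -3.74, -2.84 and -4.74 beside the median of -3.43 over all genes. Vsir was at -5.88 without KO 2 and -4.12 without KO 1, and Cd200r1 at -3.59 without KO 2. In counts per 100 CD3 counts, Havcr2 had 71.6, 48.3, 3.35 and 5.59, Cd200r1 had 66.4, 49.4, 4.78 and 11.4, and Vsir had 1991, 1386, 28.7 and 97.3. Btla had 1.46 in KO 1, while the intervals of the 0 counts reached 3.23 in WT 1, 2.07 in WT 2 and 0.189 in KO 2, and without the filter it was not called on this scale (edgeR adjusted p = 0.260).

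**Figure D3:**
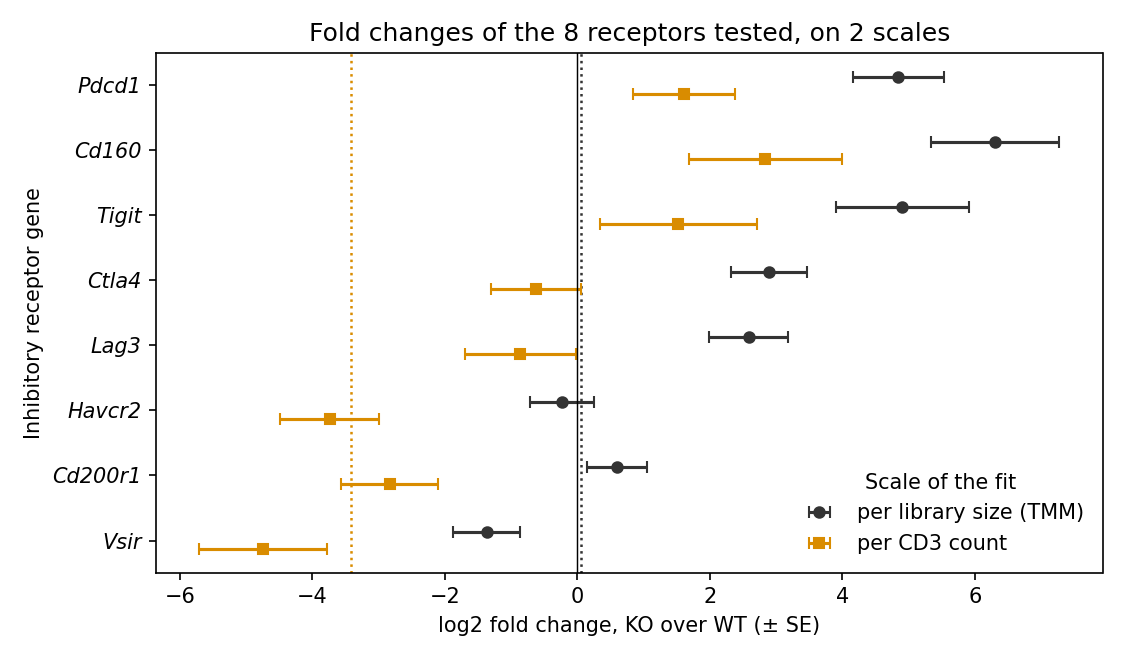
Log2 fold change of KO over WT for the 8 receptors tested, with bars of 1 SE, from the fit scaled to library size by TMM (circles) and from the fit scaled to CD3 counts (squares). Dotted lines mark the median over all genes on each scale, at 0.05 and -3.43. Cd160, Tigit and Pdcd1 lie farthest to the right on the first scale (6.31, 4.90 and 4.84), and the squares of Ctla4 and Lag3 lie below 0, at -0.62 and -0.86.

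Levels were compared between receptors as CPM per kilobase of exonic sequence, since the genes differ in length. In the libraries labeled WT, Vsir led with 116 ± 1.5 (SD, n = 2), followed by Havcr2 with 7.55 ± 0.062 and Cd200r1 with 5.98 ± 0.36, and each of these stood clear of the next in both libraries. Pdcd1 (3.46 ± 2.16) and Ctla4 (3.38 ± 2.21) overlapped and lay above Lag3 (1.37 ± 0.10), while Tigit, Cd160 and Btla were at or near 0 and overlapped. In the libraries labeled KO, Pdcd1 led with 121 ± 71.7, but its range overlapped that of Vsir with 55.8 ± 20.6. Ctla4, Tigit, Cd160, Cd200r1 and Lag3 followed with means from 31.4 down to 10.4, each overlapping the next, and Havcr2 (8.15, range 7.44 to 8.86) and Btla (1.54 ± 2.18) came last.

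The make-up of the receptor transcripts within a library does not depend on scaling between libraries, though it can still follow the cell types that the library holds. Vsir made up 86.2% and 81.6% of the summed counts per kilobase of the 9 receptors in WT 1 and WT 2, and 18.0% and 22.0% in KO 1 and KO 2. The share of Pdcd1 was 1.45% and 3.48% in WT 1 and WT 2 against 30.5% and 53.7% in KO 1 and KO 2. Pdcd1, Ctla4, Lag3, Tigit and Cd160 together held 3.80% and 8.84% against 72.4% and 71.8%. Per 100 CD3 counts the same 5 summed to 37.1, 61.1, 45.8 and 122 in WT 1, WT 2, KO 1 and KO 2. The 4 without Pdcd1 summed to 24.1, 38.3, 27.0 and 30.7, and the groups overlapped in both sums. These 5 were joined after their values were seen, and their summed share was not tested, since with 2 libraries per group the smallest exact permutation p is 0.333. Between the 2 libraries labeled KO the mix also differed, with Ctla4 at 17.7% and 6.95%, Tigit at 10.5% and 5.19%, and Cd160 at 9.06% and 2.64% in KO 1 and KO 2. The ratio of Pdcd1 to Ctla4 counts was 0.882 and 0.837 in WT 1 and WT 2 against 1.42 and 6.41 in KO 1 and KO 2.

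**Figure D4:**
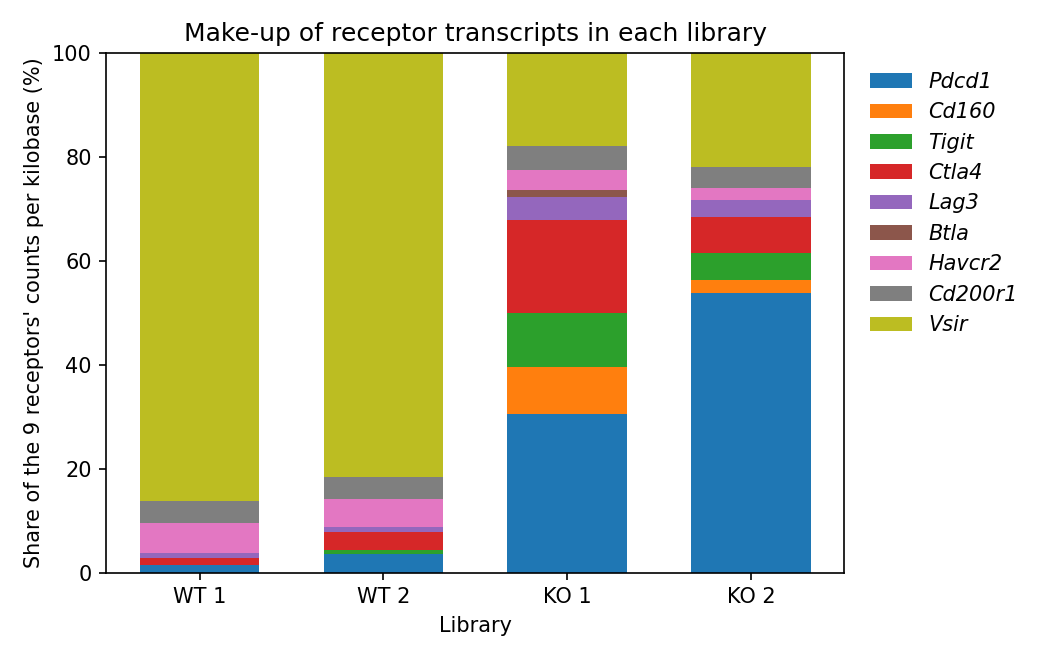
Share of each receptor in the summed counts per kilobase of the 9 receptors, as stacked bars from 0 to 100% for each library. Vsir fills most of WT 1 and WT 2 (86.2% and 81.6%), and Pdcd1 is the widest band in KO 1 and KO 2 (30.5% and 53.7%).

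Costimulatory receptors, which promote T cell activation, were compared next, among them Cd28 and Cd226, which share ligands with Ctla4 and Tigit. All 10 costimulatory receptors on the list had a fitted log2 fold change above 0, from 2.04 to 4.35 with a median of 3.07. All 10 had an unadjusted edgeR p under 0.05, 2 were called higher by edgeR and 9 by DESeq2, where 9.44%, 0.549% and 2.96% of all genes were higher by these rules. The 2 called by edgeR were Tnfrsf4 (OX40), with a log2 fold change of 3.84 ± 0.52 (SE, edgeR adjusted p = 0.0242), and Cd28, with 3.33 ± 0.56 (SE, edgeR adjusted p = 0.0396). Per CD3 count 0 of the 10 were called in edgeR, where 91.2% of all genes were called lower and 0.304% higher. The ratio of Ctla4 to Cd28, which share ligands, was 1.13, 4.08, 2.31 and 1.21 in WT 1, WT 2, KO 1 and KO 2, so that the groups overlapped. The ratio of Tigit to Cd226, which also share ligands, was 0, 0.222, 0.510 and 1.86, with both libraries labeled KO higher, but the exact 95% interval of WT 1 reached 0.849 and that of WT 2 reached 0.675. Of 7 other inhibitory receptors of T and NK cells, 6 were tested, of which 4 had an unadjusted edgeR p under 0.05 and 4 were called higher by DESeq2. In edgeR 2 were called higher, namely Cd6 with a log2 fold change of 3.77 and Klrc1 with 3.90 (edgeR adjusted p = 0.0425 and 0.0474). By the same rules 9.44%, 2.96% and 0.549% of all genes were higher. Per CD3 count 0 of the 6 were called higher and 2 lower, and Cd6 and Klrc1 had log2 fold changes of 0.48 and 0.53 (edgeR adjusted p = 0.553 and 0.494). Cd6 encodes a scavenger-type receptor that dampens T cell receptor signals, and Klrc1 encodes NKG2A, a receptor for a nonclassical MHC class I molecule.

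Ligands and downstream molecules gave no call in the edgeR fit by library size, to which the values of this paragraph belong unless stated. Per CD3 count, 13 of 13 ligands and 10 of 11 phosphatases and adaptors tested were called lower in edgeR, where 91.2% of all genes were. Of 17 ligand genes 13 were tested, and 0 were called in either direction by edgeR or DESeq2, which called 0.574% and 3.51% of all genes. Of the fitted log2 fold changes 7 were above and 6 below 0, with a median of 0.26. At an unadjusted edgeR p under 0.05, 2 of the 13 were higher and 0 lower, where 9.44% of all genes were higher and 4.23% lower. The 2 were Cd86, with a log2 fold change of 1.12 ± 0.43 (SE, edgeR adjusted p = 0.299), and Hmgb1, with 1.35 ± 0.57 (SE, edgeR adjusted p = 0.345). Cd274, which encodes the PD-1 ligand PD-L1, had 594, 463, 399 and 1043 counts across WT 1, WT 2, KO 1 and KO 2 and a log2 fold change of -0.18 ± 0.52 (SE). Tnfrsf14, which encodes HVEM, the partner of CD160 and BTLA, had 43, 51, 29 and 32 counts and a log2 fold change of -1.20 ± 0.61 (SE). Of 11 phosphatases and adaptors that act below these receptors, 0 were called by edgeR and 4 had an unadjusted p under 0.05, 1 higher and 3 lower, where 13.7% of all genes had one. DESeq2 called 1 of them higher and 0 lower, where it called 2.96% of all genes higher and 0.558% lower. Ptpn6 and Ptpn11, which encode the phosphatases SHP-1 and SHP-2 recruited by PD-1, had log2 fold changes of -0.60 and -0.63 with SE of 0.52 and 0.61. Of 13 inhibitory receptors of myeloid and B cells, 12 had a fitted value below 0 and the median was -0.75 on the log2 scale, and 0 were called by edgeR. At an unadjusted p under 0.05, 3 of them were lower and 1 was higher, and DESeq2 called 2 lower, where 4.23% of all genes were lower by the former rule and 0.558% by the latter. Ligand and downstream genes were named here for their roles and after their values were seen.

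**Figure D5:**
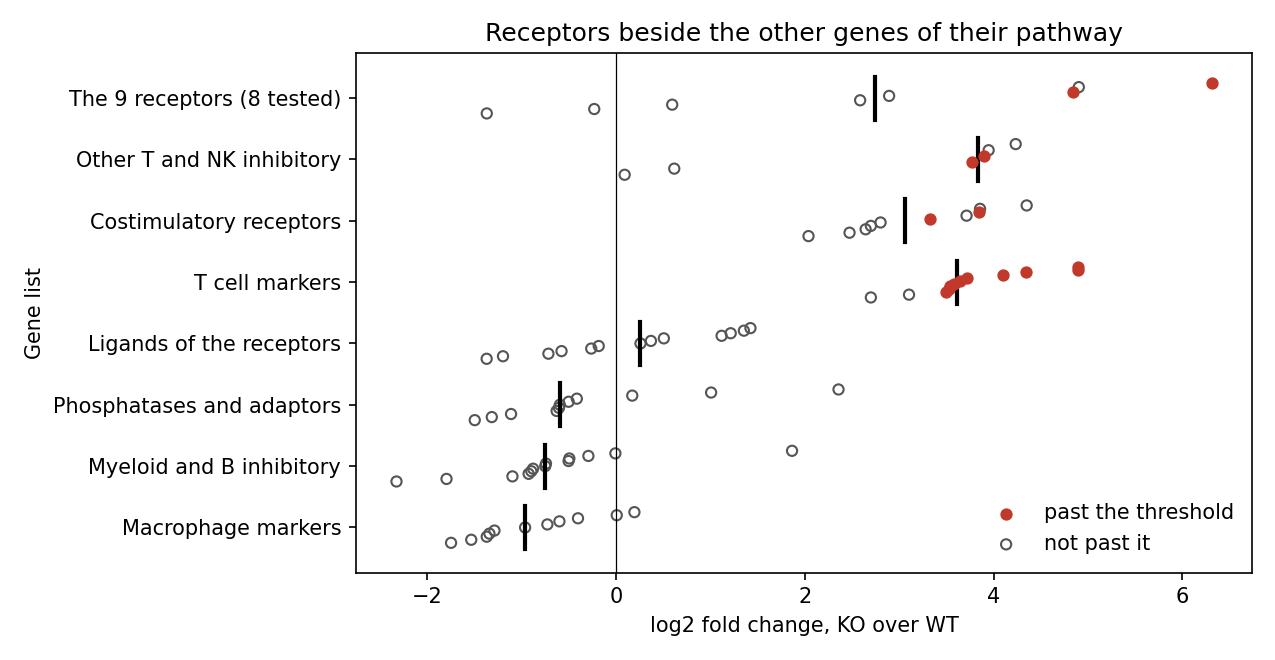
Log2 fold change of KO over WT for the tested genes of each list, with 1 point per gene, filled where the edgeR adjusted p was under 0.05. Vertical bars mark list medians. The costimulatory receptors and T cell markers lie to the right, with medians of 3.07 and 3.61. Ligands, phosphatases and adaptors, myeloid and B cell inhibitory receptors and macrophage markers have medians of 0.26, -0.60, -0.75 and -0.96, with single genes to the right of 0, such as Rasa1 (2.36) and Lilrb4a (1.86).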

How the data were processed

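The authors deposited raw read counts per gene symbol, 1 table for each of 4 libraries, without normalization and not pooled. The submitters' processing notes name HISAT2 2.1.0, HTSeq 0.11.0 and the mouse genome mm10. The annotation, the strand setting and any trimming were not given in the sources used here. Rows that name no gene, 71.2% to 79.5% of each table's reads, were left out. Of 55367 symbols, 96.3% matched GENCODE M21 (GRCm38, 1-based coordinates), which gave positions and exonic lengths. Promoter sequences came from the RefSeq table on GRCm38.p6.

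Counts were fitted in R 4.3.3 with edgeR 4.0.16 by the quasi-likelihood F test over all genes kept by filterByExpr (minimum count 10, minimum total 15), with TMM factors, all 4 libraries and group as the only term. A second fit used Cd3e, Cd3d and Cd3g counts as library sizes. P-values were two-sided and adjusted by Benjamini-Hochberg over all genes tested, with a threshold of 0.05 and a prior count of 0.125. SE was the size of the log2 fold change divided by the square root of F. CPM in the text is per 1000000 gene counts without TMM factors. Shares had exact Clopper-Pearson 95% intervals for counting error only, as PCR duplicates could not be removed by identifiers. The most alike pair, WT 1 and WT 2, still differed by far more than sampling noise (chi-square over degrees of freedom of 24.4). Alternatives were other scaling factors, no filter, DESeq2 1.42.0, a prior count of 2, other T cell denominators, a replicate block and each library left out. The scripts were tested on simulated data.

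The members and lists were chosen with earlier results of these data known. The rule for named genes was all members, the CD3 genes and Satb1, and at most 3 called genes per list. By this rule, in the fit by library size, Cd8a, Lck and Cd3e were the T cell markers with the smallest adjusted p (log2 fold changes of 4.34, 4.89 and 3.65). Tyrp1 (3.21) was the melanoma marker that passed, and Col3a1, Col1a1 and Col1a2 (8.47, 6.46 and 5.16) were the fibroblast or endothelium markers that passed. No call was made in that edgeR fit among the 5 of 5 Treg, 11 of 11 macrophage and 6 of 8 dendritic cell markers tested, or for the 1 marker tested in each of the CD4, B cell and neutrophil lists, and no NK marker could be tested. Per CD3 count, edgeR called 11 macrophage, 3 dendritic cell and 1 Treg marker lower, and the 1 marker tested in each of the CD4, B cell and neutrophil lists, where 91.2% of all genes were called lower. Other genes named in the text, such as Xist, Ddx3y, Foxp3 and the other Treg markers, Trbc2, Ncr1, Klre1, Cd79b, Csf3r, the dendritic cell and macrophage markers, ligands and phosphatases, lie outside this rule. They were chosen for their roles or after their values were seen.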

Additional observations from a re-analysis of the deposited data

How the results depend on the processing

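Pdcd1 and Cd160 were called higher under all 12 alternatives to the fit by library size, with log2 fold changes from 3.95 to 5.53 and from 5.37 to 10.32, the last without WT 2, where WT 1 had 0 Cd160 counts. The number of receptors called higher, 2 of 9, became 6 without a filter on low counts (Btla, on KO 1 alone, among them) and 5 in DESeq2, and ranged from 2 to 4 when libraries were left out, while the number called lower ranged from 0 to 1. The number of genes called, 68, became 136 with plain CPM, 583 without a filter and 416 in DESeq2, and ranged from 102 to 818 when libraries were left out. The cause was not tested. Havcr2 reversed to 0.11 with plain CPM, a setting that called 3 receptors higher, Ctla4 among them. The labels do not say that equal replicate numbers mark a shared mouse or batch, and same-numbered libraries deviated from their group means with a correlation of -0.19 across genes. A replicate block gave 4 receptors called higher and 215 genes, and a crossed block, chosen after seeing the data, gave 5 and 647. Per CD3 count, 3 to 5 receptors were called when libraries were left out against 4, of which 0 to 2 were higher against 1, beside 9629 to 10664 of 11837 genes called against 10831, and Pdcd1 passed with 7 T cell genes as denominator (1.37, edgeR adjusted p = 0.0427) but not with Cd8a and Cd8b1 (1.12, edgeR adjusted p = 0.129). Of the log2 fold changes of single receptors under the alternatives, 145 kept their direction and side of the threshold, 20 passed it newly in the same direction, 2 (Cd160 per CD3 count) no longer passed and 1 (Havcr2) reversed. The low WT counts of Tigit, Cd160 and CD3 limit depth on that scale.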
